A study of Mus musculus with 18 samples.

Results

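Txnip, the 4 Arrdc genes Arrdc1, Arrdc2, Arrdc3 and Arrdc4, and Mlxip were followed in cultured mouse cortical neurons, as 6 of the 37310 genes in the deposited count table. They were taken by gene name, as the family of Txnip and its transcription factor, and Txnip itself was chosen by its measured level, the log2 change of JQ1 over DMSO in these libraries. RNA sequencing was done on neurons lacking Fmr1 (Fmr1 KO; Fmr1 encodes FMRP, which binds RNA) and on wildtype (WT) neurons, treated at 7 days in vitro for 24 h. The libraries formed 4 groups of 3: KO in JQ1, WT in JQ1, KO in DMSO (the vehicle) and WT in DMSO. JQ1 is a small molecule that occupies the acetyl-lysine pockets of BET bromodomain proteins. All cultures were grown in Neurobasal medium with B27, and the samples treated with THZ1 were not analysed here. The labels name neither the Fmr1 allele, the strain and the age of the mice, nor the dose of JQ1, and do not say whether the numbered replicates came from separate cultures or animals; each p-value therefore reflects the variation among these libraries, which may be technical.

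Alpha-arrestins are adaptor proteins with an arrestin fold whose tails carry PPxY motifs, through which most of them recruit ubiquitin ligases of the NEDD4 family to membrane cargo. Txnip, the thioredoxin-interacting protein, binds and inhibits thioredoxin and lowers glucose uptake by promoting the endocytosis of glucose transporters. The glucose-sensing transcription factor MondoA, the product of Mlxip, pairs with Mlx on carbohydrate response elements, and Txnip and Arrdc4 are its best-known targets. Txnip is thus known as a readout of glucose supply and redox state in neurons and many other cells.

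Library totals ran from 21643592 to 134110850 gene counts, and 15433 genes, all 6 members among them, had enough counts to be tested. The members had between 143 reads (Arrdc1 in the shallowest library) and 22043 reads (Arrdc3 in the deepest). Fmr1 itself had a log2 change for KO over WT of -2.30 in JQ1 (SE 0.113, adjusted p = 7.65e-08, edgeR) and of -2.31 in DMSO (SE 0.113, adjusted p = 9.2e-08). The libraries of KO replicate 3 stood apart from the rest: Xist was at 4.34 CPM (reads scaled to the effective library size) in JQ1 and 4.29 CPM in DMSO, against at least 230.5 CPM in the other 10 libraries. Genotype results are therefore given with and without them. More genes passed without them. Of 15625 genes tested then, 1472 rose and 1695 fell for KO over WT in DMSO, against 1113 and 1198 of 15433 with all libraries. In JQ1 1225 rose and 1244 fell, against 748 and 637. The TMM scaling used here sets log2 changes against the bulk of genes. ERCC spike-in RNA made up 0.168% to 0.348% of counts in KO and 0.118% to 0.173% in WT with DMSO. With JQ1 it made up 0.193% to 0.243% in KO and 0.173% to 0.261% in WT. Its share thus varied within groups, and whether it tracks the RNA content of the cells was not tested. With ERCC spike-in RNA as the scale, the median log2 change over all genes was -0.82 for KO over WT in DMSO (-0.015 with TMM), -0.12 for that in JQ1 (-0.0045 with TMM), 0.067 for JQ1 over DMSO in KO (0.0014 with TMM) and -0.63 for that in WT (-0.0043 with TMM). The 5 general neuron markers summed to at least 3364 CPM in every library, and microglial markers to at most 9.81 CPM. In a bulk sample, fewer cells of a type and less RNA per cell cannot be told apart.

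Txnip (ENSMUSG00000038393, on chromosome 3) was the member that differed most between the groups, which include the JQ1 contrast by which it was chosen. Its level was 64.8, 58.6 and 65.2 CPM in KO neurons with JQ1 and 81.1, 76.7 and 86.8 CPM in WT neurons with JQ1. It was 17.8, 15.8 and 16.2 CPM in KO neurons with DMSO and 22.2, 23.3 and 25.2 CPM in WT neurons with DMSO. The 4 groups did not overlap, so that each library of a group lay above or below every library of the others. The order of the levels was WT with JQ1, KO with JQ1, WT with DMSO and KO with DMSO. The SD within a group was at most 6.53% of its mean.

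The bases upstream of Txnip and Arrdc4 are shown because both genes are known MondoA targets, and a carbohydrate response element consists of a pair of E-box-like motifs spaced by 5 bases. The sequences are the 250 bases before the RefSeq start of each gene in the mouse assembly GRCm38.p6, Txnip at chr3:96557707-96557956 on the plus strand and Arrdc4 at chr7:68749239-68749488 on the minus strand. Capitals mark the E-box-like motif CACGNG on either strand and the FoxO motif GTAAACA.
Txnip: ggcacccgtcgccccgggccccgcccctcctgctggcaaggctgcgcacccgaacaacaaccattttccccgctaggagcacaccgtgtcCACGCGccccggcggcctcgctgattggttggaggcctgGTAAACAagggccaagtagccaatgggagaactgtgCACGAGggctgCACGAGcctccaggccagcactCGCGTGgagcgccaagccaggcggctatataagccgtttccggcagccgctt
Arrdc4: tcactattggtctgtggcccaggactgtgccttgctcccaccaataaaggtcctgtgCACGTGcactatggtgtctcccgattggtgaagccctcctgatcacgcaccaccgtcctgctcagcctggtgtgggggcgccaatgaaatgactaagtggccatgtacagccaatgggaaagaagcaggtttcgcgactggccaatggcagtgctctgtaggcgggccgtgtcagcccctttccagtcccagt
The Txnip window held 4 E-box-like motifs, and those at -85 and -74 from the start form the run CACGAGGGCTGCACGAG, a match to CACGNG, any 5 bases and CACGNG. Such a pair was found on either strand in 15 of 32851 promoter windows of this length (0.0457%), against 23.5% with at least 1 single motif. The Arrdc4 window held a full E-box, CACGTG at -193, a motif found in 6.02% of windows that also counts as CACGNG on each strand. It held no such pair, and 6 matches to CCAAT, which 33.8% of windows had at least once. Both kinds of match describe letters in the window and not bound factors. Of the other members, Arrdc1 had 2 E-box-like motifs and Arrdc2 had 1, while Mlxip and the 3 listed starts of Arrdc3 had none in their windows.

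**Figure D1:**
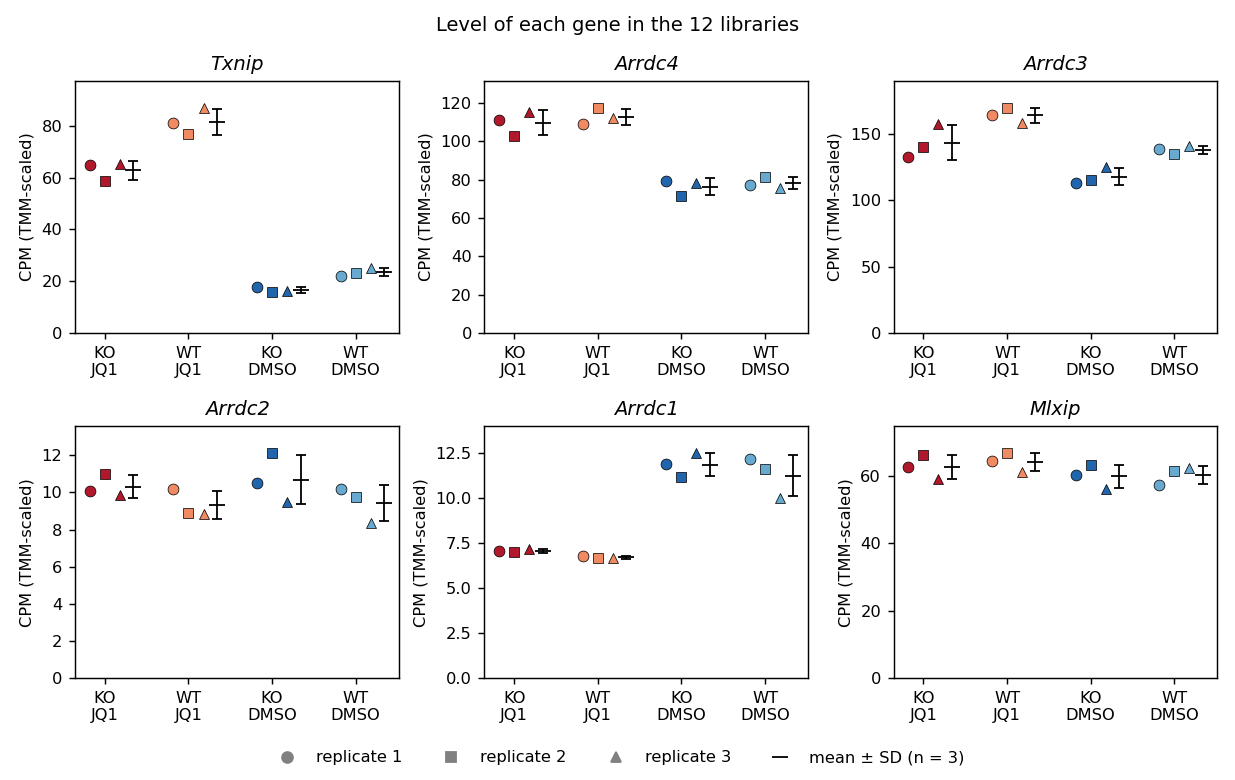
Level of the 6 genes in each library, in TMM-scaled CPM, with 1 panel per gene and its own axis from 0; symbols are replicates, and bars give the mean ± SD of 3 libraries per group. Txnip stands at 58.6 to 86.8 CPM in the JQ1 libraries and at 15.8 to 25.2 CPM in the DMSO libraries, with KO below WT in each; Arrdc1 is lower in JQ1, and Mlxip and Arrdc2 overlap between treatments.

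The comparison of KO with WT neurons addresses the loss of FMRP. The rule that chose the genes used the JQ1 contrast and not this one, although earlier results of these data were known. In DMSO, Txnip averaged 16.6 ± 1.07 CPM in KO and 23.6 ± 1.54 CPM in WT (SD, n = 3 each). It fell by 0.51 in KO on the log2 scale (95% interval -0.66 to -0.36, SE 0.0708, adjusted p = 0.00102 over the 15433 genes in edgeR's quasi-likelihood test). In JQ1 it averaged 62.9 ± 3.68 CPM in KO and 81.6 ± 5.06 CPM in WT, and fell by 0.37 in KO (95% interval -0.51 to -0.24, SE 0.0644, adjusted p = 0.00436). Txnip was thus the lower in KO in both treatments, and the 3 KO libraries lay below the 3 WT libraries each time. Same-numbered KO libraries correlated between the treatments (0.212 to 0.287), so the treatments are not independent repeats of the genotype comparison. Without both libraries of KO replicate 3 the log2 change was -0.49 in DMSO (adjusted p = 0.00323) and -0.40 in JQ1 (adjusted p = 0.00578). In the authors' deposited table of KO against WT, the log2 fold change of Txnip is -0.44, with an adjusted p of 7.12e-07. Scaled to spike-in RNA, Txnip also lay lower in KO in both treatments, at 5.23 to 9.46 reads per 1000 spike-in reads in KO against 15.1 to 19.3 in WT with DMSO, and at 26.0 to 32.6 in KO against 32.8 to 43.8 in WT with JQ1, although with that scaling the adjusted p in JQ1 was 0.9999. On that scale 11990 of the 15433 genes were called lower in KO in DMSO and 18 in JQ1. A lower value in DMSO is therefore not particular to Txnip there.

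Of the 6 members, Txnip and Arrdc3 passed the test in DMSO, where 15% of all tested genes did and 7.76% did so downwards. In JQ1 Txnip alone passed, where 8.97% of genes did and 4.13% did so downwards. The median log2 change over the 6 members was -0.022 in DMSO and -0.038 in JQ1, beside -0.015 and -0.0045 over all genes. The libraries of the genotypes did not overlap for 2 members in DMSO (37.6% of all genes) and for 3 in JQ1 (27% of all genes), the third being Arrdc1. The 6 genes therefore did not shift together with genotype.

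Markers of some cell types moved with genotype beside these values, and those of others did not. Of all tested genes, 7.21% rose and 7.76% fell in KO in DMSO, and 4.85% and 4.13% in JQ1. Without both libraries of KO replicate 3 these were 1472 and 1695 of 15625 genes in DMSO and 1225 and 1244 in JQ1. Of the 7 oligodendrocyte and 5 microglial markers tested, 0 were called in either treatment. The 8 astrocyte markers summed to 226 to 389 CPM in KO and 395 to 520 CPM in WT with JQ1, and to 369 to 510 CPM in KO and 543 to 657 CPM in WT with DMSO. Of the 7 that were tested, 2 fell in KO in DMSO and 1 in JQ1, and none rose. Of these markers, 1 was at 0 in the WT libraries with JQ1. The 8 fibroblast and vessel markers summed to 8.87 to 11.3 CPM in KO and 15.8 to 20.9 CPM in WT with JQ1, and to 12.2 to 17.0 CPM in KO and 27.9 to 35.7 CPM in WT with DMSO. Over the 6 of them that were tested, however, the median log2 change for KO over WT was 0.51 in JQ1 and 0.42 in DMSO, with 0 higher and 1 lower in JQ1 and 1 higher and 1 lower in DMSO. The 8 markers of cycling progenitors summed to 125 to 174 CPM in KO and 194 to 223 CPM in WT with JQ1, and to 138 to 175 CPM in KO and 175 to 214 CPM in WT with DMSO, and 2 fell in KO in JQ1 and 3 in DMSO. General neuron markers summed to 3661 to 3902 CPM in KO and 3364 to 3468 CPM in WT with JQ1, and to 3916 to 4233 CPM in KO and 3474 to 3662 CPM in WT with DMSO, and 1 of 5 rose in KO in JQ1 and 3 in DMSO. The general neuron marker sums of the genotypes did not overlap in either treatment. Of 7 excitatory neuron markers, 3 rose and 1 fell in KO in DMSO, and 2 rose and 1 fell in JQ1. Their sums overlapped between genotypes, at 1291 to 1376 CPM in KO and 1182 to 1306 CPM in WT with DMSO. With JQ1 they were 1300 to 1425 CPM in KO and 1181 to 1313 CPM in WT, again with overlap. The 7 inhibitory neuron markers summed to 569 to 630.03 CPM in KO and 415 to 510.1 CPM in WT with DMSO, and 5 of them rose in KO. With JQ1 their sums were 519 to 623 CPM in KO and 379 to 568 CPM in WT. Without both libraries of KO replicate 3, astrocyte markers summed to 226 to 389 CPM in JQ1 and 369 to 461 CPM in DMSO in KO, and 2 of 7 fell in each treatment. Cycling progenitor markers then summed to 125 to 172 CPM in JQ1 and 138 to 140.4 CPM in DMSO in KO, with 4 and 6 of 8 lower and 1 higher in each, and inhibitory neuron markers rose for 0 of 7 in JQ1 and 2 of 7 in DMSO. The part of these markers in the genotype differences of Txnip, Arrdc3 and the gene lists below was not tested.

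**Figure D2:**
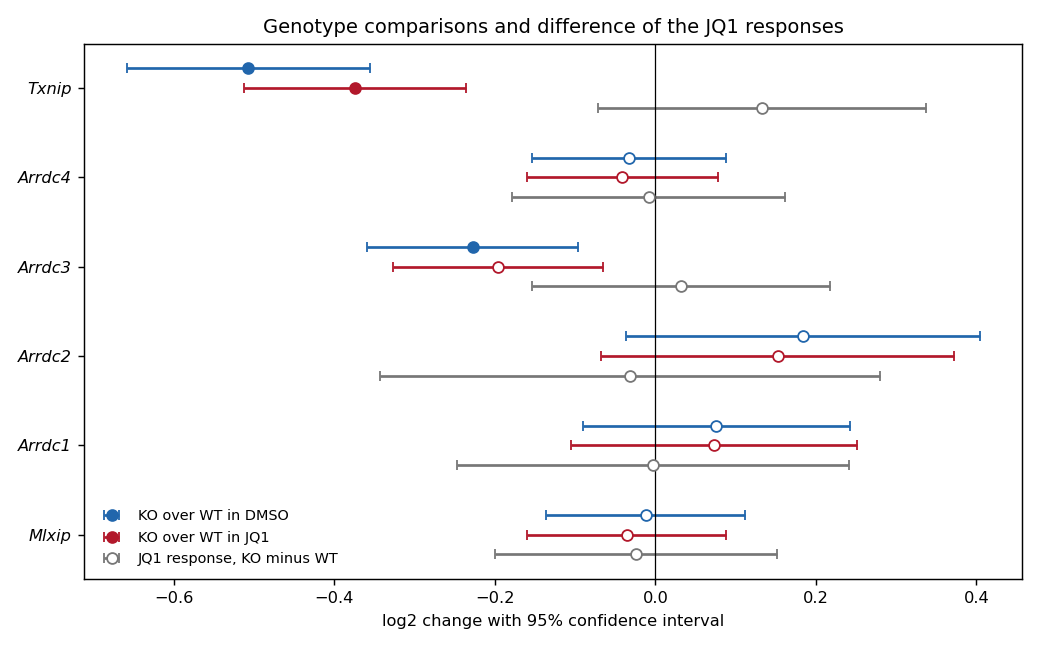
Log2 change with its 95% confidence interval of each gene for the genotypes (KO over WT) in DMSO and in JQ1, and for the JQ1 response in KO minus that in WT; filled points passed an adjusted p of 0.05. Txnip lies at -0.51 and -0.37 and Arrdc3 at -0.23 and -0.20, with an open point in JQ1, and every interval of the other genes and of the difference crosses 0.

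Arrdc3 (ENSMUSG00000074794, chromosome 13), an adaptor that brings NEDD4 to the beta-2 adrenergic receptor, had the highest CPM of the 6 genes. Its level was 133, 139.98 and 158 CPM in KO with JQ1 and 165, 169 and 158 CPM in WT with JQ1. In DMSO it was 113, 116 and 125 CPM in KO and 139, 135 and 141 CPM in WT. The KO libraries were lower in both treatments, although the highest KO library with JQ1, replicate 3, came within 1 CPM of the lowest WT library. Arrdc3 fell by 0.23 in KO on the log2 scale in DMSO (SE 0.0613, adjusted p = 0.0250, edgeR). In JQ1 its log2 change was -0.20 (SE 0.0611), and the adjusted p of 0.0590 did not pass. Without both libraries of KO replicate 3 it was -0.27 in both treatments, with an adjusted p of 0.00323 in DMSO and 0.00417 in JQ1. In JQ1 it also passed without KO replicate 3 in JQ1 alone (0.00914) or in DMSO alone (0.0479). The call in DMSO rests on few libraries: it was lost without any one of the WT libraries in DMSO (adjusted p 0.0701, 0.0537 and 0.107 without replicates 1, 2 and 3), without KO replicate 1 or 2 in DMSO (0.157 and 0.119) and without WT replicate 1 in JQ1 (0.0618). In the authors' deposited table its log2 fold change is -0.20, with an adjusted p of 0.00257.

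Arrdc4 (ENSMUSG00000042659, chromosome 7), the closest relative of Txnip among the genes that MondoA controls and likewise a brake on glucose uptake, showed no such genotype difference with TMM scaling. It averaged 109.7 ± 6.60 CPM in KO and 113 ± 4.27 CPM in WT with JQ1, and 76.4 ± 4.28 CPM in KO and 78.1 ± 3.01 CPM in WT with DMSO. With that scaling the libraries of the genotypes overlapped in each treatment. Scaled to spike-in RNA, Arrdc4 lay lower in KO with DMSO, at 23.3 to 42.8 reads per 1000 spike-in reads against 45.3 to 67.3 in WT. Most genes were called lower there on that scale (11990 of 15433). With JQ1 the spike-in values of Arrdc4 overlapped, at 44.7 to 57.7 in KO and 42.4 to 65.5 in WT. The test results that follow use TMM scaling. Its log2 change for KO over WT was -0.03 in DMSO (95% interval -0.15 to 0.09, adjusted p = 0.738) and -0.04 in JQ1 (95% interval -0.16 to 0.08, adjusted p = 0.690). Leaving out KO replicate 3 in both treatments gave -0.05 and -0.08 (adjusted p = 0.598 and 0.390). The full intervals leave out the -0.37 of Txnip in JQ1 and its -0.51 in DMSO.

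Arrdc1 (ENSMUSG00000026972, chromosome 2), which recruits TSG101 to the plasma membrane and drives the budding of vesicles there, averaged 7.08 ± 0.0907 CPM in KO and 6.72 ± 0.0764 CPM in WT with JQ1. In DMSO it averaged 11.9 ± 0.65 CPM in KO and 11.3 ± 1.13 CPM in WT. Its log2 change for KO over WT was 0.08 in DMSO (SE 0.0777, adjusted p = 0.547) and 0.07 in JQ1 (SE 0.083, adjusted p = 0.626). With KO replicate 3 left out it was 0.037 and 0.064 (adjusted p = 0.800 and 0.687). The 3 KO libraries lay above the 3 WT libraries in JQ1, by less than the test could call.

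Arrdc2 (ENSMUSG00000002910, chromosome 8), the least studied of the family, averaged 10.3 ± 0.604 CPM in KO and 9.30 ± 0.755 CPM in WT with JQ1, and 10.7 ± 1.34 CPM in KO and 9.43 ± 0.948 CPM in WT with DMSO. Its log2 change for KO over WT was 0.18 in DMSO (95% interval -0.04 to 0.40, adjusted p = 0.242) and 0.15 in JQ1 (95% interval -0.07 to 0.37, adjusted p = 0.368). With KO replicate 3 left out it was 0.26 and 0.18 (adjusted p = 0.0969 and 0.258). The libraries of the genotypes overlapped in both treatments. Arrdc5, another gene of the family, had 2 reads over the 12 libraries and was not tested.

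Mlxip (ENSMUSG00000038342, chromosome 5), the gene of MondoA, had the smallest spread of the 6 over all 12 libraries. It averaged 62.5 ± 3.63 CPM in KO and 64.0 ± 2.76 CPM in WT with JQ1, and 59.8 ± 3.50 CPM in KO and 60.3 ± 2.70 CPM in WT with DMSO. Its log2 change for KO over WT was -0.01 in DMSO (95% interval -0.14 to 0.11) and -0.04 in JQ1 (95% interval -0.16 to 0.09), with adjusted p-values of 0.916 and 0.747; without both libraries of KO replicate 3 it was 0.032 and 0.0041. The SD of its log2 level over all 12 libraries was 0.073, with Arrdc2 next at 0.14. The 0.96 of Txnip includes the JQ1 contrast by which Txnip was chosen. An antisense gene, Gm15747, overlaps 3.21% of the exons of Mlxip, and another, Gm15441, overlaps 19.4% of those of Txnip. They had at most 1 and 6 reads in a library, at most 0.0763% and 0.545% of the reads of Mlxip and Txnip. Whether the counting used strand is not given here, so reads of the overlapping stretches cannot be told apart by strand.

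Txnip was picked for its JQ1 response, so the values of JQ1 against DMSO are a description, with no test. Txnip was 3.78-fold higher with JQ1 in KO (log2 change 1.92, SE 0.0687), which placed it 24th highest among the 15433 genes. In WT it was 3.45-fold higher (log2 change 1.79, SE 0.0687) and 35th highest. Set against the DMSO library of the same number, the fold was 3.64, 3.71 and 4.03 in KO and 3.66, 3.29 and 3.44 in WT. Arrdc4 was 1.44-fold higher in KO (log2 change 0.52, SE 0.0559) and 1.44-fold in WT (0.53, SE 0.0564). Arrdc3 was higher by 0.28 in KO (SE 0.0611) and by 0.25 in WT (SE 0.0613) on the log2 scale. All 3 genes had every JQ1 library above every DMSO library in both genotypes. With spike-in scaling, the log2 change in WT was -0.38 for Arrdc3 and -0.11 for Arrdc4, so their direction in WT depends on the scaling, while Txnip remained 1.16 higher there.

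Arrdc1 went the other way, at 7.01 to 7.18 CPM with JQ1 and 11.2 to 12.5 CPM with DMSO in KO, and at 6.67 to 6.81 CPM with JQ1 and 9.98 to 12.2 CPM with DMSO in WT. Its log2 change was -0.75 in KO (SE 0.0794) and -0.74 in WT (SE 0.0817), and with spike-in scaling it was -1.39 in WT. Arrdc2 had a log2 change of -0.05 in KO and -0.02 in WT, and Mlxip of 0.07 in KO and 0.09 in WT, with libraries that overlapped between treatments. The family thus held a gene of large increase, a pair of smaller increase, a gene of decrease and a gene near 0, while Mlxip stayed near its DMSO level. In each genotype 4 of the 6 genes had treatments that did not overlap, where 60.7% of all genes in KO and 62.6% in WT did not. By adjusted p, 57.1% of all genes in KO and 55.1% in WT passed.

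Whether the response to JQ1 depended on genotype was tested by the difference of the responses, KO minus WT. For Txnip this was 0.13 on the log2 scale (95% interval -0.07 to 0.34, SE 0.0956, adjusted p = 0.9999), with JQ1 fold changes of 3.78 in KO and 3.45 in WT. For the other 5 genes it lay between -0.03 (Arrdc2) and 0.03 (Arrdc3), with 95% intervals inside -0.34 to 0.28. None of the 6 passed, as did none of the 15433 genes (0%). At an unadjusted p under 0.05 there were 355 genes (2.3%) and no member among them, and DESeq2 also called 0 genes. The Txnip levels of KO and WT neurons thus kept their order under JQ1, without a detectable difference in response.

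Ratios between genes within a library are free of the scaling between libraries. Per kilobase of exon, Txnip reads were 0.730 to 0.753 of Arrdc4 reads in KO and 0.846 to 1.001 in WT with JQ1, and 0.267 to 0.290 in KO and 0.370 to 0.432 in WT with DMSO. The log2 ratio was lower in KO by 0.34 in JQ1 and by 0.47 in DMSO. Against Mlxip, Txnip reads were 2.36 to 2.95 in KO and 3.07 to 3.79 in WT with JQ1, and 0.669 to 0.789 in KO and 1.01 to 1.08 in WT with DMSO. The ratios of Txnip to Arrdc4 and to Mlxip separated the genotypes completely, which gives an exact permutation p of 0.1 (two-sided), the smallest that 3 against 3 libraries allow. The ratio of Arrdc4 to Mlxip overlapped between genotypes, with means of 3.63 in KO and 3.63 in WT with JQ1 (exact permutation p = 1) and of 2.64 in KO and 2.67 in WT with DMSO (exact permutation p = 0.8). The ratio of Arrdc3 to Arrdc4 was 0.768 to 0.881 in KO and 0.910 to 0.975 in WT with JQ1, and 0.915 to 1.04 in KO and 1.07 to 1.20 in WT with DMSO, again without overlap (exact permutation p = 0.1 each). Against Mlxip, however, Arrdc3 overlapped between genotypes in both treatments, with exact permutation p-values of 0.4 in JQ1 and 0.2 in DMSO. With KO replicate 3 left out, that ratio was 2.81 to 2.82 in KO against 3.38 to 3.44 in WT with JQ1, and 2.44 to 2.49 in KO against 2.91 to 3.22 in WT with DMSO, and the genotypes no longer overlapped. Txnip over Arrdc3 was 0.829 to 0.981 in KO and 0.908 to 1.10 in WT with JQ1, with overlap (exact permutation p = 0.2), and 0.259 to 0.317 in KO and 0.321 to 0.360 in WT with DMSO, without overlap (exact permutation p = 0.1). Without KO replicate 3 it was 0.840 to 0.981 in KO with JQ1 and 0.274 to 0.317 in KO with DMSO. Ratios that separated the genotypes with all libraries must also do so without that replicate, so leaving it out is no check on them. In all, 6 ratios were compared in 2 treatments.

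**Figure D3:**
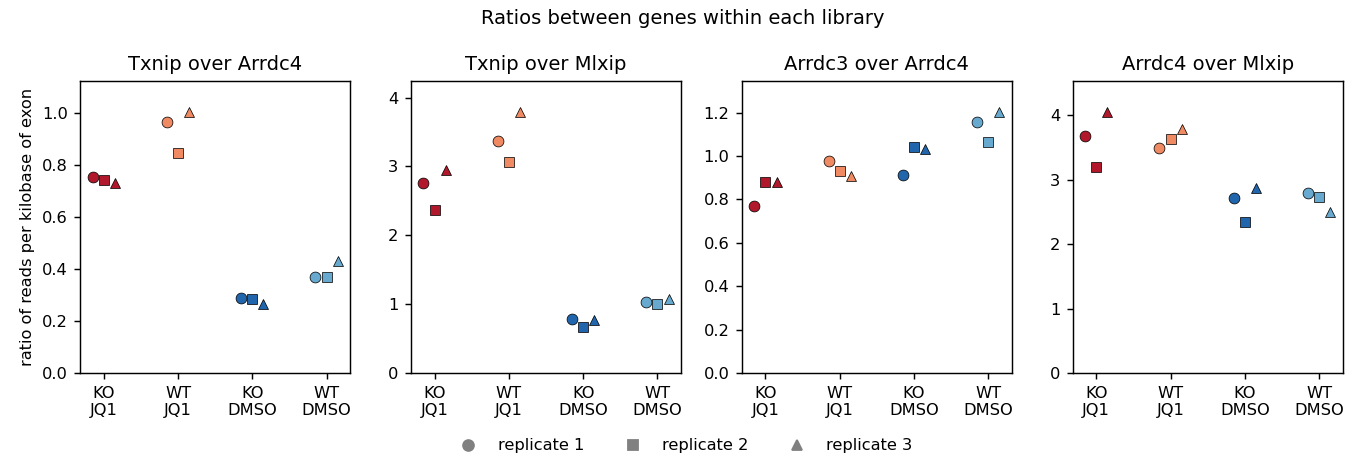
Ratio of reads per kilobase of exon between pairs of genes in each library, with 1 panel per pair and its own axis from 0; symbols are replicates. Txnip over Arrdc4 and Txnip over Mlxip are lower in KO than in WT in each treatment with no overlap, while Arrdc4 over Mlxip overlaps between the genotypes.

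Per kilobase of exon, which allows levels of different genes to be compared, Arrdc4 and Arrdc3 led the family in DMSO and Txnip joined them in JQ1. Txnip reached 20.1 ± 1.18 CPM per kilobase in KO and 26.1 ± 1.62 in WT with JQ1, and 5.31 ± 0.342 in KO and 7.55 ± 0.493 in WT with DMSO. Arrdc4 stood at 27.2 ± 1.63 in KO and 27.9 ± 1.06 in WT with JQ1, and at 18.9 ± 1.06 in KO and 19.3 ± 0.744 in WT with DMSO. Arrdc3 stood at 22.9 ± 2.06 in KO and 26.2 ± 0.895 in WT with JQ1, and at 18.8 ± 1.05 in KO and 22.03 ± 0.502 in WT with DMSO. In WT with JQ1, the ranges of neighbours in this order (Arrdc4, Arrdc3 and Txnip) overlapped. Within each of these libraries, however, Arrdc3 was below Arrdc4, at ratios of 0.910 to 0.975. Mlxip lay between 6.73 and 8.01 in every library, and Arrdc1 and Arrdc2 at or below 4.98. Of the summed reads of the 5 alpha-arrestins, Txnip made up 26.4% ± 0.956 in KO and 30.4% ± 1.85 in WT with JQ1, and 10.4% ± 0.632 in KO and 13.4% ± 0.963 in WT with DMSO. The sum itself was 76.2 ± 3.99 CPM per kilobase in KO and 85.8 ± 0.645 in WT with JQ1, and 51.1 ± 1.52 in KO and 56.3 ± 0.468 in WT with DMSO, with no overlap between genotypes in either treatment.

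**Figure D4:**
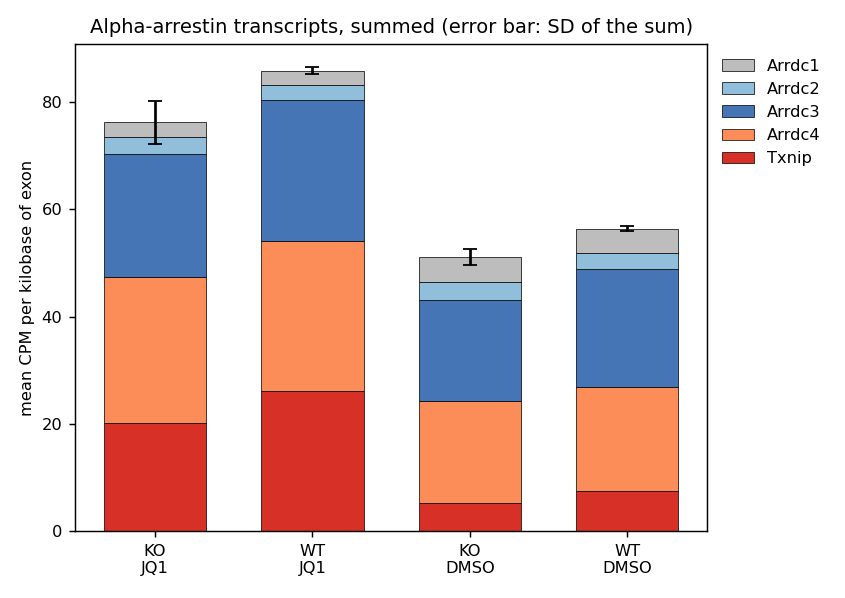
Mean CPM per kilobase of exon of the 5 alpha-arrestins, stacked, in the 4 groups of 3 libraries; the error bar is the SD of the sum. Txnip, chosen by its JQ1 contrast, is the segment that differs most between treatments, 20.1 and 26.1 in JQ1 against 5.31 and 7.55 in DMSO. Arrdc4 and Arrdc3 are of similar height in DMSO.

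The thioredoxin system, which Txnip restrains, was read from 19 tested genes, none of them a member. Thioredoxin itself, Txn1, averaged 146 ± 3.79 CPM in KO and 140.03 ± 9.12 CPM in WT with JQ1, and 144 ± 5.39 CPM in KO and 143 ± 15.2 CPM in WT with DMSO. Neither Txn1 nor the reductase gene Txnrd1 passed in any comparison. In KO over WT in DMSO 1 gene rose and 2 fell, where 7.21% of all genes rose and 7.76% fell, with a list median of 0.031 against -0.015 over all genes. Msra, which repairs oxidised methionine with thioredoxin as its reductant, rose by 0.53 (adjusted p = 0.000532), and the peroxiredoxin genes Prdx4 and Prdx1 fell by 0.30 and by 0.26 (adjusted p = 0.0143 and 0.0244). Msra also rose in KO in JQ1, by 0.54 (adjusted p = 0.000846), as the only gene called there. Without both libraries of KO replicate 3 the counts were 2 higher and 3 lower in DMSO, and 2 higher and 1 lower in JQ1. Over all 15625 genes tested then, 1472 rose and 1695 fell in DMSO, and 1225 rose and 1244 fell in JQ1.

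With JQ1, genes of the thioredoxin list passed in both directions. In KO 5 rose and 8 fell, and in WT 4 rose and 7 fell, where 27.7% and 29.4% of all genes rose and fell in KO and 25.9% and 29.3% in WT. Srxn1, the sulfiredoxin that reactivates oxidised peroxiredoxins, fell by 0.90 in KO and by 0.93 in WT (adjusted p = 3.89e-08 and 4.09e-08). The mitochondrial peroxiredoxin gene Prdx3 fell by 0.64 in KO and by 0.68 in WT (adjusted p = 2.82e-07 and 2.22e-07). The cytosolic Prdx1 rose by 0.61 in KO and by 0.53 in WT (adjusted p = 4.95e-06 and 1.89e-05). Peroxiredoxin genes therefore moved in both directions.

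Glucose transport and glycolysis, the uptake route that Txnip and Arrdc4 limit, was read from 28 genes. In KO over WT in DMSO 10 rose and 2 fell, where 7.21% of all genes rose and 7.76% fell, and the list median was 0.11 against -0.015. Gpi1, the glucose-6-phosphate isomerase gene, averaged 198 ± 3.90 CPM in KO and 153 ± 5.66 CPM in WT and rose by 0.37 (adjusted p = 0.000755). The aldolase gene Aldoa rose by 0.29 (adjusted p = 0.00146), and Pfkm, a phosphofructokinase gene, by 0.30 (adjusted p = 0.00367). In KO over WT in JQ1 7 rose and 1 fell (4.85% and 4.13% of all genes), with a median of 0.13 against -0.0045. There Gpi1 rose by 0.33 (adjusted p = 0.00215), Pfkm by 0.29 (adjusted p = 0.00656) and Aldoa by 0.23 (adjusted p = 0.00715). Among the transporter genes, Slc2a6 rose by 0.24 in KO in DMSO (adjusted p = 0.0458) and Slc2a4, the insulin-responsive transporter gene, fell by 0.66 (adjusted p = 0.0174), while Slc2a1 and Slc2a3, the main transporter genes of glia and neurons, passed in neither treatment. The sums of general and inhibitory neuron markers were also higher in KO in DMSO and that of astrocyte markers lower, at the values given above, and their part was not tested. When KO replicate 3 was left out, 12 rose and 3 fell in DMSO (1472 and 1695 of 15625 genes tested then). In JQ1, 10 genes of the list then rose and 1 fell (1225 and 1244 of all genes). With spike-in scaling the median of all genes in DMSO was itself -0.82, so these increases are relative to other genes.

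With JQ1, 9 genes of the list rose and 4 fell in KO, and 10 rose and 5 fell in WT, beside 27.7% and 29.4% of all genes in KO and 25.9% and 29.3% in WT, with list medians of 0.016 and -0.00065. Slc2a1 rose by 0.31 in KO and by 0.28 in WT (adjusted p = 0.00458 and 0.0112), and Slc2a3 by 0.16 in WT (adjusted p = 0.00886). Pfkl, the liver-type phosphofructokinase gene, rose by 0.70 in KO and by 0.80 in WT (adjusted p = 2.67e-07 and 1.13e-07), and Pgam1, a phosphoglycerate mutase gene, by 0.32 and by 0.27 (adjusted p = 9.9e-06 and 4.55e-05). Pfkfb2 rose by 0.24 in KO and by 0.22 in WT (adjusted p = 0.000675 and 0.00129), and the triosephosphate isomerase gene Tpi1 fell by 0.27 in KO and by 0.40 in WT (adjusted p = 0.00218 and 9.79e-05).

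Genes of MondoA's partners and of the carbohydrate response passed in both directions. Of 4 tested genes for Mlx and proteins that can share or compete for it, Mnt rose in KO in DMSO (0.23, adjusted p = 0.00632) and in JQ1 (0.16, adjusted p = 0.0427), and Mxd4 fell in JQ1 (-0.16, adjusted p = 0.0471). Without WT replicate 3 in JQ1 neither rise nor fall was called in JQ1, and without both libraries of KO replicate 3 the counts there were 1 higher and 0 lower. With JQ1, Mlx rose by 0.32 in KO and by 0.16 in WT (adjusted p = 0.000233 and 0.0257), Mxd1 rose by 0.22 in WT (adjusted p = 0.00819) and Mnt fell by 0.14 in KO (adjusted p = 0.0130). Mlxipl, the gene of the MondoA relative ChREBP, had at most 17 reads in a library and was not tested. Of 13 targets known mostly from liver, where ChREBP drives them, 2 rose in KO in DMSO, the lipogenic genes Acly (0.22, adjusted p = 0.0114) and Fasn (0.24, adjusted p = 0.0486), and 1 in JQ1, Acly (0.18, adjusted p = 0.0423). Without WT replicate 3 in JQ1, 1 rose in DMSO and 0 in JQ1. Without both libraries of KO replicate 3, 3 rose in DMSO, where 1472 of 15625 genes did. In JQ1 1 then rose and 1 fell, where 1225 and 1244 genes did. With JQ1, 1 rose and 7 fell in KO and 3 rose and 5 fell in WT, beside the 27.7% and 29.4% of all genes in KO and 25.9% and 29.3% in WT. Khk, the fructose kinase gene, fell by 1.47 in KO and by 1.48 in WT (adjusted p = 1.14e-06 and 1.63e-06). The malic enzyme gene Me1 fell by 1.02 in KO and by 1.05 in WT (adjusted p = 1.26e-06 and 1.19e-06), and the elongase gene Elovl6 by 0.35 in KO and by 0.38 in WT (adjusted p = 0.000105 and 6.06e-05).

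**Figure D5:**
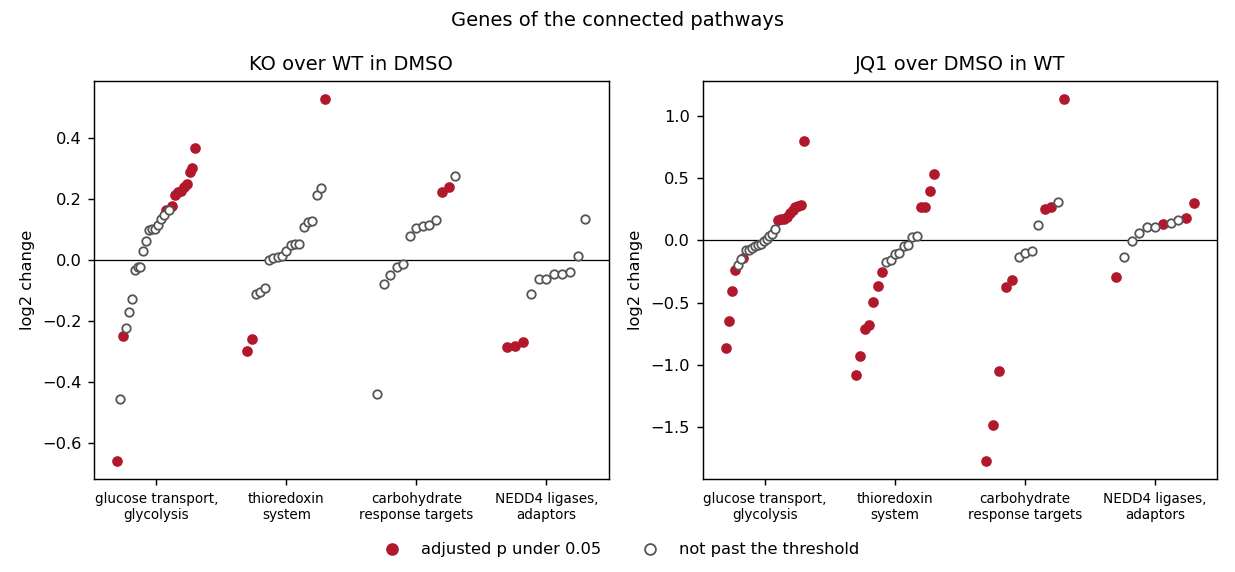
Log2 change of each tested gene of 4 gene lists, ordered within a list, for KO over WT in DMSO (left) and JQ1 over DMSO in WT (right); red points passed an adjusted p of 0.05. In the left panel 10 of 28 genes of glucose transport and glycolysis passed above 0 and 2 below it, and all 3 NEDD4-family genes that passed lie below 0; in the right panel each list holds passed genes on both sides of 0.

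The NEDD4-family ligases and their adaptors, the partners of the alpha-arrestins, were read from 11 genes. In KO over WT in DMSO none rose and 3 fell, where 7.21% of all genes rose and 7.76% fell, with a list median of -0.062 against -0.015 over all genes. Smurf2, a ligase that targets TGF-beta receptors, averaged 50.7 ± 1.46 CPM in KO and 61.9 ± 2.25 CPM in WT and fell by 0.29 (adjusted p = 0.00253). Itch fell by 0.27 (adjusted p = 0.00752), and its relative Wwp1 by 0.28 (adjusted p = 0.0160). Itch is the ligase known to ubiquitinate Txnip. In JQ1, where 4.85% of all genes rose and 4.13% fell, Smurf2 alone passed, at -0.27 (adjusted p = 0.00497), and Itch was at -0.15 (adjusted p = 0.105). Without both libraries of KO replicate 3, 1 rose and 3 fell in DMSO, where 1472 and 1695 of 15625 genes did. In JQ1, 2 of the list then fell, where 1244 genes did. With JQ1, 6 of the 11 rose and 2 fell in KO and 3 rose and 1 fell in WT, where 27.7% and 29.4% of all genes did in KO and 25.9% and 29.3% in WT. In WT these counts were 7 and 1 without WT replicate 3 in JQ1, and 5 and 2 without both libraries of KO replicate 3. Smurf2 rose by 0.32 in KO and by 0.30 in WT (adjusted p = 4.9e-05 and 9.51e-05), Ndfip2, an adaptor of these ligases, by 0.21 and by 0.18 (adjusted p = 0.000444 and 0.00163), and Wwp2 fell by 0.38 and by 0.29 (adjusted p = 3.67e-05 and 0.000426).

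The genes whose profile was most like that of each member were found by the root-mean-square difference of centred log2 CPM over the 12 libraries. Nearest to Txnip were Peg10 (0.174), a gene derived from a retroelement, Chchd7 (0.233), Sertad1 (0.234), Hexim1 (0.243), whose product holds P-TEFb inactive, and 4930579G22Rik (0.268). Of these, Peg10 had log2 changes for KO over WT of -0.25 in DMSO and -0.30 in JQ1, while Hexim1 had 0.025 and -0.052. The nearest member to Txnip was Arrdc4, at a distance of 0.699. Arrdc3 was close to Creb1 (0.0275), Exoc5 (0.0334) and Hiatl1 (0.035), and Arrdc4 to Scg3 (0.0485), Txndc16 (0.0533) and Kin (0.0545). Arrdc1 was close to Tm7sf2 (0.0507), Ccdc136 (0.0588) and Insig1 (0.061), Arrdc2 to Scnm1 (0.0768), Tspan4 (0.0775) and Slc36a1 (0.0797), and Mlxip to Jmjd4 (0.0324), Kdm2a (0.035) and Smcr8 (0.0367). Among the members themselves the closest pair was Arrdc2 and Mlxip, at 0.151, and every distance from Txnip was larger than any distance between the other 5. The distances include the JQ1 contrast by which Txnip was chosen. Its nearest genes and its distance from the other members therefore largely restate that choice.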

How the data were processed

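RNA was prepared with RNeasy columns and a TruSeq RNA kit and sequenced on a NextSeq500 (single reads of 75 bp), per the labels' protocols. The authors aligned reads with TopHat2 2.1.0 to mm9, handled them with SAMtools 0.1.19, counted them with HTSeq 0.6.1 and used DESeq2 and DESeq, per the submitters' processing notes. The deposited count table gives raw reads for each Ensembl gene and for 92 ERCC rows, 86 of them detected, which were left out of library sizes. The authors' deposited KO against WT table gives a mean signal, log2 fold changes, a Wald score and p-values, which were quoted and not tested.

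The tests used edgeR 4.0.16 in R 4.3.3: filterByExpr by group (minimum count 10; 21877 genes dropped), TMM scaling, 1 mean per group over 12 libraries, quasi-likelihood F tests and Benjamini-Hochberg adjustment over 15433 genes, called under 0.05. Alternatives were other scalings and filters, DESeq2 1.42.0, smaller fits, replicate blocks and left-out libraries, and the fit was tested on simulated data. Exon lengths and overlapping genes came from GENCODE vM21 and promoters from RefSeq, both on GRCm38. For all 6 genes, exon lengths were matched by Ensembl gene, and overlapping genes and promoters by symbol. Members and gene lists were chosen with earlier results of these data known. From each list up to 3 genes of smallest adjusted p per comparison were named; Txn1, Txnrd1, the Slc2a genes, Tsg101 and Itch in JQ1 were added after their values were seen, as were KO ranges without replicate 3. Replicate libraries differed by more than counting noise, with a chi-square of 4.94 to 41.4 for each degree of freedom. Deviations of same-numbered libraries correlated at 0.212 to 0.287 between JQ1 and DMSO in KO, where the numbers therefore pair the libraries. In WT they correlated at 0.094 to 0.16, with the best match at a library's own number for 3 of 3 numbers.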

Additional observations from a re-analysis of the deposited data

How the results depend on the processing

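Txnip kept its lower level in KO in both treatments under all 20 alternatives in each, with leave-one-out log2 changes of -0.55 to -0.44 in DMSO (adjusted p 0.000870 to 0.00615) and -0.42 to -0.32 in JQ1 (0.00442 to 0.0218); its call in JQ1 was lost with spike-in scaling alone. Members called in DMSO numbered 5 with spike-in scaling, against 2, and 1 to 2 with a library left out. In JQ1 they numbered 0 with spike-in scaling and 2 with no filter, with DESeq2, with a replicate block and without both KO replicate 3 libraries, against 1, and 1 to 2 with a library left out; the gene added was Arrdc3. In KO, members whose treatments did not overlap numbered 2 with spike-in scaling, against 4.

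Signs turned where values were near 0 or under spike-in scaling. With that scaling, KO over WT in DMSO was -0.76 for Arrdc1 and -0.62 for Arrdc2, and in JQ1 -0.042 for Arrdc1. JQ1 over DMSO in WT was -0.38 for Arrdc3 and -0.11 for Arrdc4, and the difference of responses was 0.72 for Arrdc1, 0.64 for Arrdc2, 0.71 for Arrdc4 and 0.65 for Mlxip, beside a median of 0.70 over all genes. Mlxip for KO over WT in DMSO was 0.0023 with no filter, 0.0023 with these groups alone and 0.032 without both KO replicate 3 libraries, and in JQ1 0.0041 without them. The difference for Arrdc1 was 0.018 with a replicate block by culture, chosen after seeing the data, and 0.027 without both KO replicate 3 libraries. With a library left out, the difference ran from -0.068 to 0.054 for Arrdc1, -0.14 to 0.046 for Arrdc2, -0.043 to 0.084 for Arrdc3, -0.076 to 0.038 for Arrdc4 and -0.091 to 0.015 for Mlxip. KO over WT then ran from -0.041 to 0.030 in DMSO and -0.079 to 0.0067 in JQ1 for Arrdc4, and from -0.047 to 0.054 in DMSO and -0.080 to 0.0040 in JQ1 for Mlxip.

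With a replicate block, Arrdc3 for KO over WT in JQ1 passed (-0.20, adjusted p = 0.0395), and the block changed no other call of a member. Between genotypes the numbers do not pair the libraries: same-numbered deviations correlated at -0.18 to 0.011 in DMSO and -0.016 to 0.12 in JQ1, and the best match was a library's own number for 0 and 2 of 3 numbers. In WT between treatments they correlated at 0.094 to 0.16, and the best match was a library's own number for 3 of 3 numbers, as in KO. The main fit used no pairing. The cause of changed calls was not tested. The lowest member count was 143 reads, for Arrdc1, and the widest standard errors were those of Arrdc2. Over all genes, calls for KO over WT numbered 11994 with spike-in scaling in DMSO, against 2311, and in JQ1 23 with spike-in scaling, 630 with these groups alone and 2469 without both KO replicate 3 libraries, against 1385. With a library left out they ran from 885 to 2764 in DMSO and from 534 to 2027 in JQ1. JQ1 over DMSO in KO gave 1520 with spike-in scaling, against 8817.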

Other observations

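The inflammasome, which Txnip is known to activate through NLRP3, was represented by 4 tested genes at low level, and all 4 fell with JQ1 in both genotypes, where 29.4% of all genes fell in KO and 29.3% in WT. Casp1, the gene of caspase-1, averaged 0.193 ± 0.0544 CPM in KO and 0.216 ± 0.046 CPM in WT with JQ1, and 0.868 ± 0.142 CPM in KO and 0.790 ± 0.181 CPM in WT with DMSO. Casp1 had enough counts to be tested through its DMSO libraries alone, so it could hardly have counted as a rise. It fell by 2.25 in KO and by 1.73 in WT on the log2 scale (adjusted p = 1.18e-05 and 0.000103, edgeR), and the cytokine gene Il18 by 0.995 and by 1.41 (adjusted p = 0.000221 and 9.53e-06). The DNA sensor gene Aim2 fell by 0.78 in KO and by 0.67 in WT (adjusted p = 0.00180 and 0.00802). Without both KO replicate 3 libraries 3 of the 4 fell in KO. Nlrp3 had at most 4 reads in a library and was not tested. Microglial markers summed to 6.97 to 8.15 CPM in KO and 6.01 to 6.73 CPM in WT with JQ1, and to 7.99 to 9.81 CPM in KO and 8.31 to 9.03 CPM in WT with DMSO, and 3 of 5 tested markers fell with JQ1 in each genotype. Their part in the inflammasome values was not tested.

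Glucocorticoid and FoxO targets, a list that is also known to include regulators of Txnip, moved in both directions. Of 21 genes, 5 rose and 7 fell with JQ1 in KO, and 4 rose and 6 fell in WT, beside 27.7% and 29.4% of all genes in KO and 25.9% and 29.3% in WT. Fkbp5, a co-chaperone of the glucocorticoid receptor, averaged 86.0 ± 1.47 CPM in KO and 92.4 ± 2.71 CPM in WT with JQ1, and 44.7 ± 2.92 CPM in KO and 52.4 ± 2.13 CPM in WT with DMSO. It rose by 0.94 in KO and by 0.82 in WT (adjusted p = 6.66e-09 and 2.81e-08). Tsc22d3, another glucocorticoid target, fell by 1.37 in KO and by 1.33 in WT (adjusted p = 1.38e-06 and 1.56e-06), and Foxo3 rose by 0.49 and by 0.59 (adjusted p = 6.41e-07 and 1.48e-07). For KO over WT, 2 rose and 2 fell in DMSO, where 7.21% and 7.76% of all genes did. For KO over WT in JQ1, 2 rose and 1 fell, where 4.85% and 4.13% did. Without both KO replicate 3 libraries this was 4 and 3 in DMSO (1472 and 1695 of 15625 genes). In JQ1 it was then 1 and 1 (1225 and 1244 genes). Zbtb16, a zinc finger gene induced by glucocorticoids, rose by 0.51 in DMSO and by 0.37 in JQ1 in KO (adjusted p = 0.00776 and 0.0496; without KO replicate 3 0.0191 and 0.0907). Fkbp5 fell by 0.23 in DMSO in KO (adjusted p = 0.0118), and Ddit4 by 0.24 in JQ1 (adjusted p = 0.0162). Sgk1, a kinase gene induced by glucocorticoids, rose in KO by 0.30 in DMSO and by 0.52 in JQ1 (adjusted p = 0.00804 and 0.000713).

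Among other genes with an arrestin fold, Arrb2, the gene of beta-arrestin 2, rose in KO by 0.34 in DMSO and by 0.30 in JQ1 (adjusted p = 0.00407 and 0.0094), as the only one of 7 tested that passed there with all libraries. Without both KO replicate 3 libraries, Arrb1 also rose in DMSO (0.20, adjusted p = 0.0255) and Vps26a fell (-0.16, adjusted p = 0.0175), while Arrb2 rose by 0.36 in DMSO and by 0.34 in JQ1 (adjusted p = 0.00441 and 0.00596). Without WT replicate 3 in JQ1, 2 rose and 0 fell in DMSO. With JQ1 the retromer gene Vps26a rose by 0.43 in KO and by 0.34 in WT (adjusted p = 4.37e-05 and 0.000319), Arrb2 by 0.28 and by 0.32 (adjusted p = 0.00118 and 0.000566), and Arrb1 fell by 0.28 and by 0.26 (adjusted p = 0.000708 and 0.00141). Of the 7, 2 rose and 2 fell in each genotype, beside 27.7% and 29.4% of all genes in KO and 25.9% and 29.3% in WT. Sag, 1 of the 7, averaged 0.191 CPM in KO and 0.182 CPM in WT with JQ1, and 0.499 and 0.324 CPM with DMSO. It had enough counts to be tested mainly through its DMSO libraries, so it could hardly have counted as a rise. Of 5 tested genes for cargo of the Arrdc proteins, 3 fell with JQ1 in each genotype and none rose, where 29.4% of all genes fell in KO and 29.3% in WT; without both KO replicate 3 libraries 2 fell in KO. Adrb3, the beta-3 adrenergic receptor gene, averaged 0.0540 ± 0.0246 CPM in KO and 0.0963 ± 0.0450 CPM in WT with JQ1, and 0.441 ± 0.0688 CPM in KO and 0.432 ± 0.0715 CPM in WT with DMSO, and fell by 2.95 in KO and by 1.98 in WT (adjusted p = 1.09e-05 and 0.000124). Adrb3 had enough counts to be tested through its DMSO libraries alone, so it could hardly have counted as a rise. Adrb1, the beta-1 adrenergic receptor gene, fell by 0.38 in KO and by 0.34 in WT (adjusted p = 0.00276 and 0.00575). Slc11a2, an iron transporter gene, fell by 0.15 with JQ1 in KO and by 0.17 in WT (adjusted p = 0.0249 and 0.0130), and rose in KO by 0.17 in DMSO and by 0.19 in JQ1 (adjusted p = 0.0467 and 0.0394; without KO replicate 3 0.0469 and 0.0294). Of 13 genes for the ESCRT machinery that Arrdc1 recruits, 6 rose and 3 fell with JQ1 in KO, and 5 rose and 3 fell in WT, beside 27.7% and 29.4% of all genes in KO and 25.9% and 29.3% in WT. Vps37c fell by 0.36 in KO and by 0.40 in WT (adjusted p = 0.000129 and 7.89e-05), and Chmp4b by 0.31 and by 0.25 (adjusted p = 0.000229 and 0.00151). Tsg101, its direct partner, averaged 122 ± 9.60 CPM in KO and 123 ± 5.47 CPM in WT with JQ1, and 110.1 ± 2.08 CPM in KO and 115 ± 1.51 CPM in WT with DMSO. For KO over WT, 3 of the 13 ESCRT genes rose and 2 fell in DMSO, where 7.21% and 7.76% of all genes did. In JQ1 3 rose and 0 fell, where 4.85% and 4.13% did. These counts were the same without both KO replicate 3 libraries, where 1472 and 1695 of 15625 genes rose and fell in DMSO. In JQ1 1225 and 1244 genes then did.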
